A study of Homo sapiens with 18 samples.

Results

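HEK293A cells labelled as knockouts of the kinases LATS1 and LATS2 were compared with wild-type HEK293A cells after both had been held in zinc. HEK293A is an adherent line of human embryonic kidney origin. The comparison rests on 6 of the series' 18 RNA-seq libraries: 3 of wild-type cells and 3 of LATS1/2 double-knockout cells, each treated with 250 uM ZnCl2 for 4 h. These libraries were chosen by genotype and treatment in their titles, and the comparison was described across the 19393 genes that had enough counts to test, of 58336 gene rows. The other 12 libraries hold the same genotypes after 4 h in water (H2O) or in 50 uM CdCl2, 3 of each, and served to show where the genotype difference in zinc departed from that in water or cadmium. All cells were HEK293A, and no other allele or agent is named. The labels do not give the position of the edits or the number of knockout clones, so knockout and cell line cannot be told apart. The design text calls the replicates biological without naming cultures or days, so the p-values reflect only how these libraries scatter, which may be technical.

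LATS1 and LATS2 are the last kinases of the Hippo pathway. They phosphorylate the coactivators YAP and TAZ, which otherwise enter the nucleus and, bound to TEAD factors, switch on genes of growth, adhesion and the cytoskeleton. Excess zinc is sensed by the transcription factor MTF1, which binds metal response elements and induces metallothioneins and the exporter SLC30A1. Zinc overload also unfolds proteins and oxidises thiols, which engages HSF1 (heat shock genes), NRF2 (antioxidant genes) and the integrated stress response, in which phosphorylation of eIF2alpha leads to translation of ATF4, an activator of amino acid synthesis and transport genes.

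Levels below are CPM, read counts scaled to equal library size, on TMM-scaled library sizes, given in the order of replicates 1, 2 and 3. Fold changes are log2 of knockout over wild type with an approximate standard error (log2 ± SE). Total counts were 29879363 to 31175036 in the wild-type and 29383123 to 33483425 in the knockout zinc libraries. In the fit of all 18 libraries edgeR's biological coefficient of variation, which leaves out counting noise, had a median over genes of 3.93%. On a principal component analysis of the 6 zinc libraries the first component, 84.84% of the variance, separated the genotypes. The second, 4.75%, set replicate 3 of wild type apart, and so did a chi-square test of counts, which gave 4.96 and 5.04 per degree of freedom against its replicates 1 and 2 but 1.88 between those. Without that library 12425 genes were called in place of 12928, no named gene lost its call, and 32 of the 140 named genes moved by over 0.1 on the log2 scale, several of them genes with few counts. Values without it are given for genes with more counts where it mattered. All gene rows of the mitochondrial chromosome together, not its mRNAs alone, took 5.12 to 5.34% of counts in wild type and 4.28 to 4.51% in knockout.

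LATS1 (ENSG00000131023, chromosome 6, 149658153 to 149718256) lay at 79.4, 78.2 and 84.5 CPM in wild type against 50.4, 48.4 and 48.5 CPM in knockout. The groups did not overlap, and the difference was -0.72 ± 0.04 (edgeR quasi-likelihood test, p adjusted by Benjamini-Hochberg, adjusted p = 1.52e-18). LATS2 (ENSG00000150457, chromosome 13, 20973032 to 21061547) lay at 50.2, 44.3 and 49.0 CPM in wild type against 38.2, 36.0 and 40.4 CPM in knockout (-0.32 ± 0.05, adjusted p = 6.23e-07). In zinc both mRNAs were thus lower but still present in the libraries labelled knockout. Edited genes may go on being transcribed, and these levels do not settle whether the proteins were lost. In water LATS2 was slightly higher in the knockout (0.18 ± 0.06, edgeR quasi-likelihood adjusted p = 0.0130). Its direction thus differed between treatments, and the difference between zinc and water was itself called (-0.51 ± 0.08, adjusted p = 8.34e-06).

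Of 12 markers of the HEK293 lineage 11 were tested, 8 higher and 3 lower in the knockout, beside 34.0% and 32.7% of all genes tested. VIM, an intermediate filament gene, averaged 429 CPM in wild type against 217 CPM in knockout, the keratin gene KRT8 309 and 1825 CPM, and the renal transcription factor gene EYA1 8.26 and 0.921 CPM. The neurofilament gene NEFM and the renal factor gene PAX8 were at 0.0341 and 0.0670 CPM in wild type against 0.360 and 1.27 CPM in knockout. The 8 fibroblast markers summed to 12 to 15 CPM in wild type against 57.6 to 65.4 CPM in knockout, with 4 of 5 tested higher, and 5 endothelial markers summed to 1.59 to 1.67 and 4.69 to 5.41 CPM, with 4 of 4 higher. The 7 blood cell markers summed to 3.83 to 4.56 and 4.08 to 5.46 CPM, with HBB at 0 counts, and the 5 hepatocyte markers to under 1.11 CPM in every library. Keratinocyte and epithelial markers summed to 22.4 to 25.7 and 26.1 to 28.3 CPM, with KRT1 at 0. The lines therefore differ in lineage markers as well as in LATS1, and the part of other cells or of line identity in the results below was not tested. In bulk RNA fewer cells of a type and less RNA per cell cannot be told apart.

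Knockout and wild type differed in 12928 of 19393 genes in zinc (66.7%; adjusted p under 0.05 by edgeR with Benjamini-Hochberg adjustment), 6592 higher in the knockout (34.0%) and 6336 lower (32.7%). A difference of at least 2-fold was seen for 2058 genes above (10.6%) and 1098 below wild type (5.66%). The CPM of the 2 genotypes did not overlap in 13260 genes (68.4%). Lack of overlap was a condition for naming most genes below and is no further support for them. With this much of the transcriptome called, a share of called members near 66.7% in a gene list says little about that list, and sizes and directions carry more. The median log2 fold change over all genes was 0.003 and the median absolute one 0.381.

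Most of this genotype difference was also there without zinc. In water 12200 genes were called (62.9%; 5973 higher, 30.8%, and 6227 lower, 32.1%), and 9617 genes were called in the same direction in both treatments, 74.4% of the zinc calls and 78.8% of the water calls. Across the 19393 genes the log2 fold changes in zinc and in water correlated with Pearson's r = 0.876 and Spearman's rho = 0.764, as a description over genes, which are not independent, from libraries with no sample in common. The difference between the genotype effects, zinc minus water, was called for 4767 genes (24.6%), 2729 higher (14.1%) and 2038 lower (10.5%), including 188 (0.969%) and 315 (1.62%) with a difference of 2-fold or more. Of the 4767 genes, 451 were called in opposite directions in the 2 treatments, 280 of them higher in the knockout in zinc but lower in water and 171 the reverse. In cadmium 13004 genes were called (67.1%; 6313 higher, 32.6%, and 6691 lower, 34.5%), 10149 of them in the direction seen in zinc and 443 opposite, and the difference zinc minus cadmium was called for 4571 (23.6%), 2701 higher (13.9%) and 1870 lower (9.64%). Which direction had more calls depended on the scaling: by library size alone, 2309 were higher and 2335 lower in the difference from water, and 2239 and 2358 in that from cadmium.

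**Figure D1:**
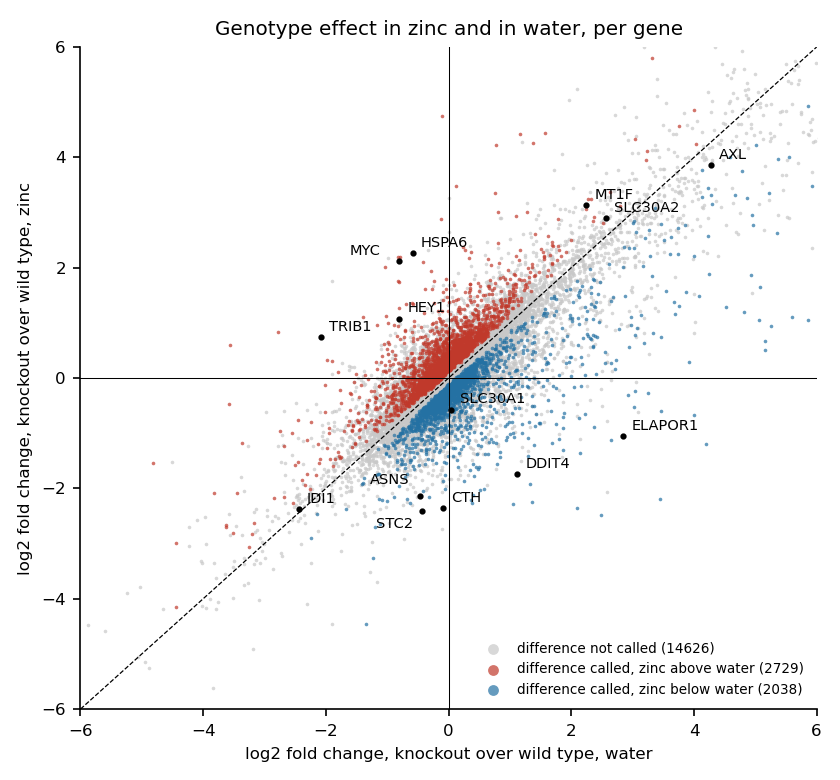
Each point is a gene, with the log2 fold change of knockout over wild type in water on the x axis and in zinc on the y axis. Red and blue mark the 2729 and 2038 genes whose effect was higher or lower in zinc than in water, the dashed line marks equal effects, 14 genes are labelled, and 209 genes beyond 6 on either axis are not drawn. Most points follow the line, while MYC, TRIB1, HEY1 and HSPA6 lie above it and DDIT4, CTH, STC2 and ELAPOR1 below.

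Gene lists of stress, signalling and identity were then read against these background shares, 34.0% of all genes higher and 32.7% lower in zinc. Counts of list members in zinc given below without a share are to be read beside these. The ATF4 target list had the lowest median of the 25 pathway lists, -1.12, and metallothioneins the highest, 2.41, beside 0.003 for all genes. In the range from the 25th to the 75th percentile all genes lay between -0.34 and 0.43.

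**Figure D2:**
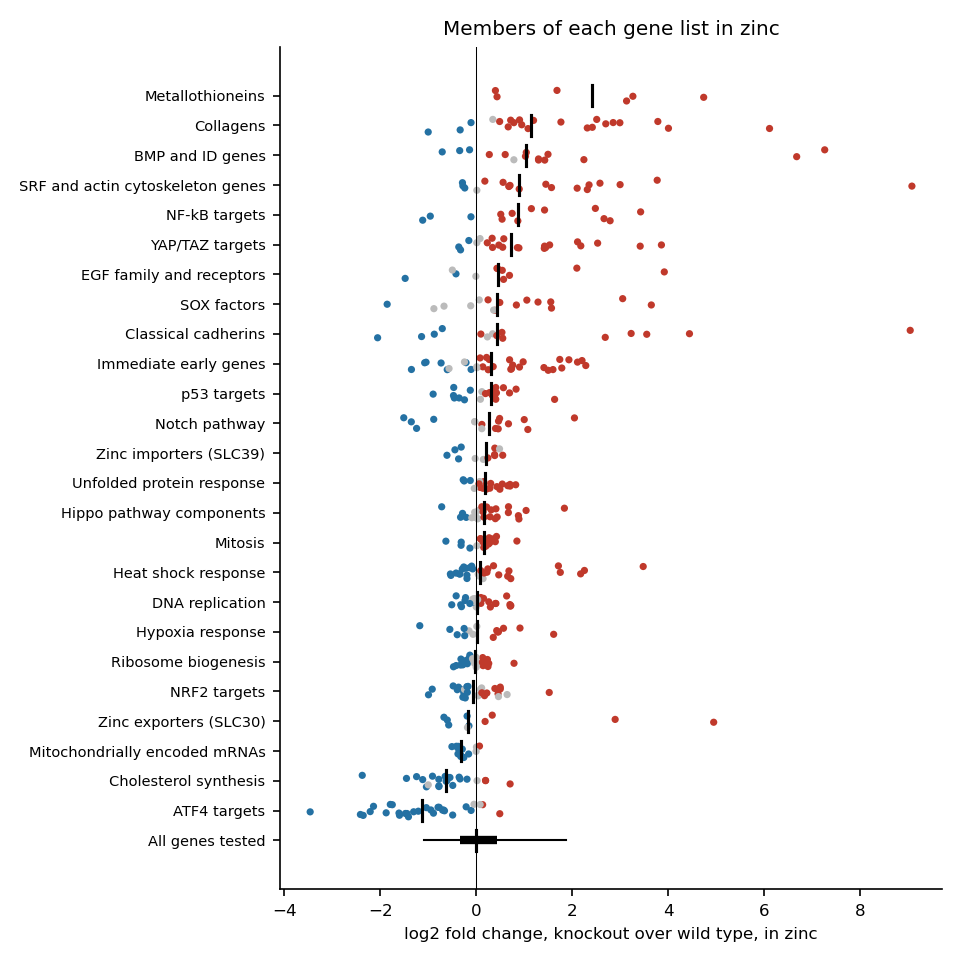
Log2 fold change of knockout over wild type in zinc for each tested member of 25 gene lists, with red for called higher, blue for called lower, grey for not called, and black ticks for medians. The bottom row gives all 19393 genes as their median, the 25th to 75th percentile (thick bar) and the 5th to 95th percentile (thin bar). ATF4 targets and cholesterol synthesis genes lie mostly left of 0, and collagens, BMP and ID genes and SRF targets mostly right of it.

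Genes of the integrated stress response set zinc-treated knockout cells apart from zinc-treated wild type. Of 30 ATF4 targets 26 were lower in the knockout, 16 of them by at least 2-fold, and 2 were higher. In water the list's median was -0.37 with 19 lower and 7 higher, and in cadmium -0.60 with 25 lower and 5 higher. The difference zinc minus water was lower for 23 members and higher for 3, beside 10.5% and 14.1% of all genes.

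CTH (ENSG00000116761, chromosome 1, 70411218 to 70439851), the cystathionine gamma-lyase that makes cysteine, lay at 112, 109 and 118 CPM in wild type against 22.4, 22.8 and 21.2 CPM in knockout. Its groups in zinc were far apart (-2.35 ± 0.05, edgeR quasi-likelihood adjusted p = 2.69e-33), whereas in water they stood at 9.01 ± 0.710 and 8.50 ± 0.0374 CPM (mean ± SD, n = 3; adjusted p = 0.290). TRIB3 (ENSG00000101255, chromosome 20, 362835 to 397559), a pseudokinase induced by ATF4, lay at 157, 137 and 129 CPM in wild type against 30.8, 31.6 and 29 CPM in knockout (-2.21 ± 0.05). In water TRIB3 was higher in the knockout (0.37 ± 0.07), so its direction differed between treatments. ASNS (ENSG00000070669, chromosome 7, 97852118 to 97872542), which makes asparagine, lay at 34.1, 31.6 and 27.4 and 6.55, 7.14 and 7.42 CPM (-2.14 ± 0.07). The secreted glycoprotein gene STC2 (ENSG00000113739, chromosome 5, 173314713 to 173329503) lay at 97.5, 92.8 and 94.4 and 18.6, 18.2 and 16.8 CPM (-2.41 ± 0.05). For each gene the 3 knockout libraries in zinc held well under the wild-type level. Lack of overlap was a condition for naming these genes, and 68.4% of all genes showed it.

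CHAC1 (ENSG00000128965, chromosome 15, 40952962 to 40956519), which degrades glutathione, lay at 50.2, 44.7 and 53.8 CPM in wild type against 15.8, 17.2 and 15.9 CPM in knockout (-1.61 ± 0.06), against 1.69 ± 0.311 and 1.92 ± 0.297 CPM in water (mean ± SD, n = 3). In cadmium the sign turned, with CHAC1 at 0.49 log2, and zinc minus cadmium was -2.10 (edgeR quasi-likelihood adjusted p = 1.25e-21). DDIT4 (ENSG00000168209, chromosome 10, 72273920 to 72276036), an inhibitor of mTORC1, lay at 42.9, 38.9 and 42.1 CPM in wild type against 12.3, 13.2 and 11.5 CPM in knockout in zinc (-1.75 ± 0.11). In water it was higher in the knockout, 12.4 ± 0.711 against 5.95 ± 3.42 CPM (1.11 ± 0.16), so knockout cells stood near the same DDIT4 level with and without zinc.

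Further members were lower across the branches of the response. Among amino acid enzymes PSPH and PSAT1 of serine synthesis differed by -1.41 and -1.30, PHGDH by -0.94 and the mitochondrial folate enzymes SHMT2 and MTHFD2 by -0.79 and -0.70. The amino acid transporter genes SLC7A5 and SLC3A2 were at -1.47 and -0.77, and the tRNA synthetase genes GARS1, AARS1 and WARS1 at -1.44, -0.68 and -0.49. Among regulators SESN2 was at -1.87, the transcription factor genes DDIT3, CEBPG and CEBPB at -1.60, -1.20 and -0.89, and ATF3 at -0.10. NUPR1 had the lowest value, -3.46, at 1.90 CPM in wild type against 0.166 CPM in knockout. The members called higher were PPP1R15A (0.49), which directs dephosphorylation of eIF2alpha, and ATF5 (0.14), while SLC1A5 and SLC1A4 were not called (-0.04 and 0.08).

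ATF4 mRNA itself differed far less, 568 against 500.2 CPM (-0.18, adjusted p = 7.66e-07). Of the 4 eIF2alpha kinase genes, EIF2AK1 (HRI, which responds to heme and mitochondrial stress) stood at 177 against 108 CPM (-0.71, adjusted p = 5.49e-23) and EIF2AK4 (GCN2, which senses uncharged tRNA) at 62.5 against 78.6 CPM (0.33, adjusted p = 4.32e-09). EIF2AK3 (PERK, the sensor in the endoplasmic reticulum) stood at 73.1 against 68.6 CPM (-0.09, adjusted p = 0.0517), not called, and EIF2AK2 (PKR) at 151 against 141 CPM (-0.09, adjusted p = 0.0166). In water EIF2AK1 and EIF2AK4 differed about as much (-0.72 and 0.33), and EIF2AK2 was not called (-0.06). ATF4 differed more in water (-0.36), and its zinc minus water was called (0.18). EIF2AK3 was higher in the knockout in water (0.41), and its zinc minus water was called (-0.50, adjusted p = 9.78e-07). Phosphorylation and protein were not measured. The adjusted p-values are from the edgeR quasi-likelihood test.

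**Figure D3:**
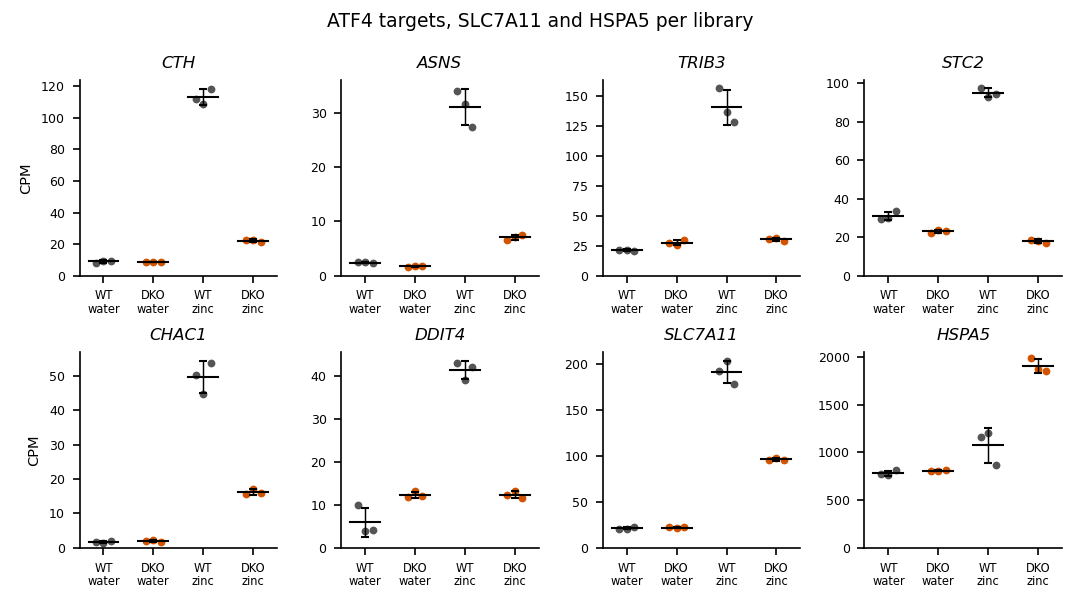
CPM per library in wild type (WT, grey) and knockout (DKO, orange) in water and zinc, with the mean and SD of 3 libraries. For CTH, ASNS, TRIB3, STC2, CHAC1, DDIT4 and SLC7A11 the wild-type zinc libraries stand above all others, whereas for HSPA5 the knockout zinc libraries do.

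The C/EBP-ATF element, through which ATF4 acts with C/EBP partners, was searched as TGATGNA on both strands in the 250 bases before the RefSeq transcript start, which for several genes, CHAC1 and ASNS among them, lies inside the gene bounds printed here from GENCODE, a motif chosen after these results were known. It was in 5 of the 23 promoters found for the 26 lower members (ATF3, CHAC1, ASNS, PHGDH, AARS1), and in 8.41% of 35116 RefSeq promoters of GRCh38.p14. The windows of CHAC1 (chr15:40953243-40953289, plus strand) and ASNS (chr7:97872450-97872496, minus strand) are shown 5′ to 3′ on the gene's strand because both genes carry the finding above, with the match or its reverse complement in capitals.
CHAC1: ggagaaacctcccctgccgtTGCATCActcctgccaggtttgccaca
ASNS: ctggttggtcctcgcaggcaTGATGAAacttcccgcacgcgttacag

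Several chaperone genes of the endoplasmic reticulum, in the unfolded protein response list, went the other way. Of 20 members 14 were higher in the knockout in zinc and 3 lower, beside 34.0% and 32.7% of all genes. The median of 0.19 lay within the 25th to 75th percentile of all genes (-0.34 to 0.43). In water 8 were higher and 4 lower (median 0.03). Zinc minus water was higher for 11 and lower for 3, beside 14.1% and 10.5% of all genes. HSPA5 (ENSG00000044574, chromosome 9, 125234853 to 125241330), the chaperone BiP, lay at 1158, 1199.8 and 866 CPM in wild type against 1987, 1869.5 and 1855 CPM in knockout. The difference was 0.83 ± 0.06 (edgeR quasi-likelihood adjusted p = 5.59e-16), and without wild-type replicate 3 it was 0.69. In water HSPA5 stood at 782 ± 26.6 and 809 ± 7.34 CPM (mean ± SD, n = 3; adjusted p = 0.460). The disulfide isomerase gene PDIA4 lay at 246, 255 and 223 and 404, 388 and 388 CPM (0.71 ± 0.03), and DNAJC3 at 62.4, 61.7 and 57.5 and 99.9, 96.0 and 101 CPM (0.71 ± 0.04). SDF2L1, a partner of BiP, was at 0.66 ± 0.06 in zinc but -0.29 ± 0.06 in water. In cadmium HSPA5, PDIA4 and DNAJC3 were higher in the knockout too (0.69, 0.57 and 0.58), while SDF2L1 was not called (0.02). Lower members were XBP1 (-0.27), EDEM1 (-0.25) and CANX (-0.12).

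Zinc handling genes were examined next. Metallothioneins are small cysteine-rich proteins that bind zinc, cadmium and copper. Their metal response element, searched as TGCACNC or TGCGCNC on both strands, was in all 5 metallothionein promoters that could be matched in the RefSeq table used here (MT1B, MT1H, MT1X, MT2A, MT4) and in those of SLC30A1 and SLC30A2, against 24.8% of 35116 promoters. MT1X and MT2A are shown because they held most metallothionein reads, and SLC30A1 and SLC30A2 because they differed between genotypes in opposite directions (MT1X chr16:56682300-56682443, plus strand; MT2A chr16:56608334-56608583, plus strand; SLC30A1 chr1:211579184-211579230, minus strand; SLC30A2 chr1:26046119-26046294, minus strand; GRCh38.p14). Capitals mark matches on either strand.
MT1X: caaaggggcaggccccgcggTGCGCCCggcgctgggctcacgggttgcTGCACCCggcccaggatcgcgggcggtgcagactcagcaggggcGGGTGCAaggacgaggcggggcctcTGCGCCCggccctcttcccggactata
MT2A: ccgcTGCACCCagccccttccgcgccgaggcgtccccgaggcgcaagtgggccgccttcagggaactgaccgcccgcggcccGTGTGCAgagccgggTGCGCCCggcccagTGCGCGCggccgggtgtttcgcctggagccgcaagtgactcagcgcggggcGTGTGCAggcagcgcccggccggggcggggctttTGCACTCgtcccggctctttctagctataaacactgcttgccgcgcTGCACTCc
SLC30A1: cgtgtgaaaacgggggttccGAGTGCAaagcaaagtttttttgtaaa
SLC30A2: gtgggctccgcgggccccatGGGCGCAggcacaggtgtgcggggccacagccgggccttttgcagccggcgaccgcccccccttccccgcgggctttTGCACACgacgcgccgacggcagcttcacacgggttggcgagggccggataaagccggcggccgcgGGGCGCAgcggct

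All 6 tested metallothionein genes were higher in the knockout in zinc, 4 of them by at least 2-fold, though the call of MT1B rested on few counts and on wild-type replicate 2. MT1F (ENSG00000198417, chromosome 16, 56657694 to 56660698) lay at 9.89, 9.29 and 6.90 CPM in wild type against 79.6, 77.6 and 71.8 CPM in knockout. The groups were wide apart (3.14 ± 0.07, edgeR quasi-likelihood adjusted p = 2.09e-31; 2.98 without wild-type replicate 3). In water MT1F was also higher, at 1.74 ± 0.233 against 0.360 ± 0.116 CPM (mean ± SD, n = 3), and zinc minus water was 0.90 ± 0.34 (adjusted p = 0.0532), just short of the threshold and called under 9 of the alternatives, DESeq2 among them. The abundant MT2A (ENSG00000125148, chromosome 16, 56608199 to 56609497) lay at 1026, 980.0 and 844 CPM in wild type against 1336, 1290.5 and 1231 CPM in knockout (0.44 ± 0.05), and MT1X (ENSG00000187193, chromosome 16, 56682424 to 56684196) at 296, 304 and 265 and 374, 391 and 379 CPM (0.40 ± 0.04). Both differences were smaller than that of MT1F. In water MT2A and MT1X were also higher in the knockout (0.41 ± 0.08 and 0.71 ± 0.12). For neither was zinc minus water called (0.02 ± 0.09 and -0.31 ± 0.13).

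The remaining metallothioneins had few reads. MT1G had 12, 10 and 5 counts in wild type and 264, 254 and 255 in knockout, a ratio of 27.1 (95% counting interval 18.5 to 41.4). MT1H had 3, 1 and 0 counts in wild type and 16, 13 and 15 in knockout (ratio 10.4, interval 3.79 to 39.9), and MT1B had 8 counts over the wild-type and 28 over the knockout libraries (ratio 3.31, 1.47 to 8.41). The fitted difference of MT1B, 1.69, was 2.44 without wild-type replicate 3 and lost its call without wild-type replicate 2 (1.31, edgeR adjusted p = 0.0575), and that of MT1H, 3.27, was 4.50 without wild-type replicate 1. MT1E, with 3 and 6 counts, was not tested (ratio 1.89, 0.404 to 11.7), and MT1A, MT1M, MT3 and MT4 had no counts in any zinc library. These intervals cover counting error only. MT1 genes are near copies of each other, and it is not given how reads fitting several genes were counted, so the split among them is uncertain. MTF1, their activator, stood at 69.0 against 60.3 CPM (-0.19, adjusted p = 2.41e-04) (edgeR quasi-likelihood test).

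Zinc transporters split. Of 10 SLC30 exporters 4 were higher and 5 lower, and of 12 tested SLC39 importers 5 and 4, beside 34.0% and 32.7% of all genes. SLC30A1 (ENSG00000170385, chromosome 1, 211571568 to 211578742), the exporter of the plasma membrane, lay at 1012, 1076 and 982 CPM in wild type against 671, 692 and 703 CPM in knockout. It was lower in every knockout library (-0.57 ± 0.03), and in water the genotypes stood at 57.0 ± 3.27 and 58.8 ± 0.586 CPM (mean ± SD, n = 3), so that zinc minus water was -0.62 ± 0.05 (edgeR quasi-likelihood adjusted p = 5.53e-12). In cadmium SLC30A1 differed about as much (-0.67 ± 0.03), and zinc minus cadmium was not called (0.10 ± 0.04). SLC30A2 (ENSG00000158014, chromosome 1, 26037252 to 26046133), a vesicular exporter, lay at 23.9, 25.2 and 18.3 CPM in wild type against 168, 170.1 and 164 CPM in knockout (2.90 ± 0.07; 2.76 without wild-type replicate 3). Its water levels were 0.280 ± 0.391 and 1.70 ± 0.0529 CPM, and zinc minus water was not called (0.33 ± 0.50). SLC30A9 was at -0.60 ± 0.03, SLC30A4 at 0.34 ± 0.08, and SLC30A8 at 4.95 with under 1 CPM in both groups.

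Among importers SLC39A14 lay at 175, 180.1 and 180.4 CPM in wild type against 258, 262 and 266 CPM in knockout (0.55 ± 0.03), and SLC39A1 at 106, 109 and 105 and 140.1, 141 and 139 CPM (0.39 ± 0.03). SLC39A10 was lower, 38.0, 35.9 and 41.8 against 23.7, 25.8 and 26.5 CPM (-0.61 ± 0.06). SLC39A9 was lower too (-0.44 ± 0.04), but 22.2% of its reads lay on the opposite strand, which these counts do not separate. No SLC39 gene reached 2-fold.

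Heat shock genes did not move together. Of 30 members 14 were higher and 13 lower, with a median of 0.08, and 5 were higher by at least 2-fold: HSPA1A, HSPA6, HSPA7, CRYAB and HSPA1L. HSPA1A (ENSG00000204389, chromosome 6, 31815464 to 31817946), the inducible HSP70, lay at 16.6, 15.7 and 13.7 CPM in wild type against 191, 169 and 153 CPM in knockout. The difference was 3.48 ± 0.06 (edgeR quasi-likelihood adjusted p = 8.23e-34), while in water the groups stood at 1.69 ± 0.313 and 1.87 ± 0.122 CPM (mean ± SD, n = 3; adjusted p = 0.609). In cadmium the HSPA1A difference was 2.75 ± 0.07, smaller than in zinc (zinc minus cadmium 0.74 ± 0.10). HSPA1B, its near copy, differed by 0.66, and the split of reads between these copies is uncertain. HSPA6 (ENSG00000173110, chromosome 1, 161524540 to 161526910) lay at 329, 303 and 202 CPM in wild type against 1439, 1333 and 1212 CPM in knockout (2.26 ± 0.09; 2.07 without wild-type replicate 3), and its near copy HSPA7 at 2.18. The small heat shock gene HSPB8 lay at 104, 90.6 and 67.7 and 150.3, 143 and 139 CPM (0.72 ± 0.07), and its partner BAG3 at 612, 560.3 and 540.3 and 956, 923 and 874 CPM (0.68 ± 0.04). For both, the difference in water was about as large (0.71 and 0.65). DNAJB1 was at 0.47, whereas constitutive chaperones were slightly lower: HSPA8 at -0.35, HSPE1 at -0.42 and HSPD1 at -0.29. HSF1 stood at 62.5 against 70.2 CPM (0.17, adjusted p = 0.00124).

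NRF2 targets had 8 members higher and 13 lower of 28, beside 34.0% and 32.7% of all genes, and a median of -0.07. SLC7A11 (ENSG00000151012, chromosome 4, 138164097 to 138242349), the cystine transporter, lay at 193, 203 and 179 CPM in wild type against 95.6, 97.7 and 95.4 CPM in knockout. The difference was -0.99 ± 0.05, and in water the groups did not differ by the test (21.4 ± 0.999 and 22.1 ± 0.671 CPM, adjusted p = 0.642 by edgeR). HMOX1 (ENSG00000100292, chromosome 22, 35380361 to 35394214), which degrades heme, lay at 541, 524 and 326 CPM in wild type against 263, 238 and 237 CPM in knockout. Wild-type replicate 3 stood closest to the knockout, and the difference was -0.91 ± 0.08 with it and -1.12 without it. NQO1 was at -0.48, GCLC at -0.37 and SQSTM1 at -0.39, while ABCC2 (0.50 ± 0.11) and AKR1C2 (1.52) were higher. NFE2L2, which encodes NRF2, stood at 136 against 106 CPM (-0.35, adjusted p = 5.66e-11), and KEAP1, its inhibitor, at 78.9 against 60.9 CPM (-0.38, adjusted p = 3.44e-12).

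**Figure D4:**
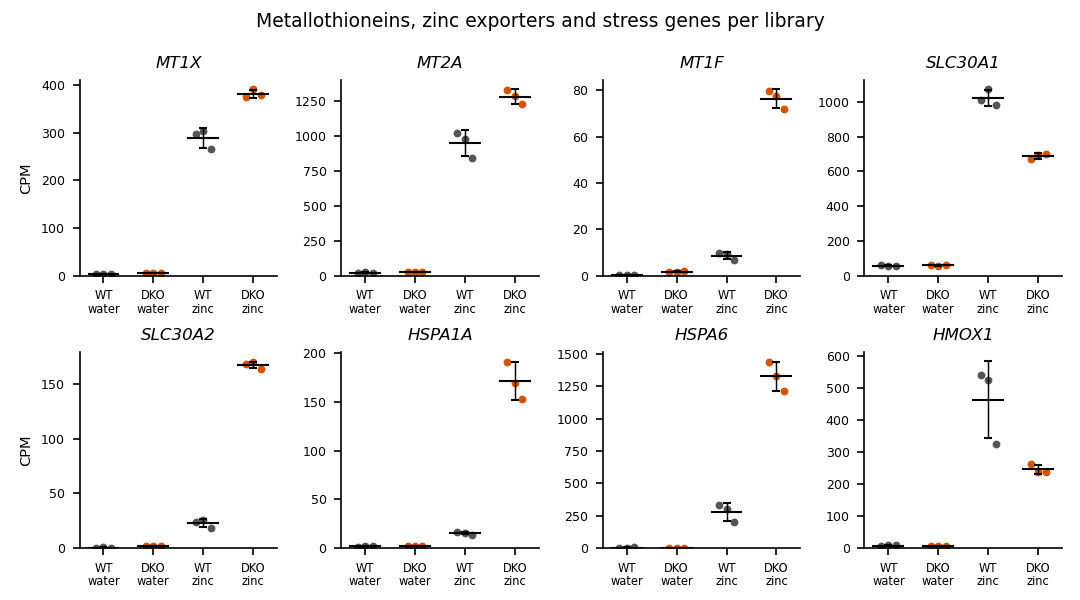
CPM per library in wild type (WT, grey) and knockout (DKO, orange) in water and zinc, with the mean and SD of 3 libraries. In zinc MT1X, MT2A, MT1F, SLC30A2, HSPA1A and HSPA6 are higher in the knockout and SLC30A1 and HMOX1 lower, and HMOX1 and HSPA6 show a lower value in wild-type replicate 3.

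Immediate early genes, which respond to growth factor and stress kinases within minutes, were mostly higher in the knockout in zinc. Of 32 members 21 were higher and 7 lower (median 0.31), beside 34.0% and 32.7% of all genes. This median lay within the 25th to 75th percentile of all genes (-0.34 to 0.43). In water 16 were higher and 10 lower (median 0.39), and in cadmium 10 higher and 20 lower (median -0.46). MYC (ENSG00000136997, chromosome 8, 127735434 to 127741434) lay at 4.68, 4.30 and 3.81 CPM in wild type against 19.0, 16.8 and 19.4 CPM in knockout in zinc (2.11 ± 0.08, edgeR quasi-likelihood adjusted p = 4.63e-23). In water it was lower in the knockout, 38.2 ± 0.432 against 66.5 ± 3.14 CPM (mean ± SD, n = 3; -0.80 ± 0.05), so the genotypes changed order between treatments and zinc minus water was 2.92 ± 0.10. Zinc-treated libraries of both genotypes held less MYC than water-treated ones, and the wild-type ones least. IER5 (ENSG00000162783, chromosome 1, 181088712 to 181092899), an activator of HSF1, lay at 51.5, 50.2 and 46.1 and 248, 241 and 232 CPM (2.29 ± 0.04). The nuclear receptor gene NR4A1 (ENSG00000123358, chromosome 12, 52022832 to 52059507) lay at 53.5, 46.6 and 42.1 and 145, 148 and 139 CPM (1.60 ± 0.05).

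Among the higher members were DUSP genes, whose products are phosphatases that switch off MAP kinases. DUSP1 (ENSG00000120129, chromosome 5, 172768090 to 172771195) lay at 281, 282 and 170.1 CPM in wild type against 1195, 1114 and 1078 CPM in knockout (2.21 ± 0.09; 2.00 without wild-type replicate 3). DUSP4 (ENSG00000120875, chromosome 8, 29333064 to 29350668) lay at 11.5, 10.6 and 11.4 and 42.7, 42.1 and 42.9 CPM (1.93 ± 0.06), although in water it was lower in the knockout (-0.29 ± 0.05). DUSP5, DUSP6 and DUSP2 were at 1.74, 1.79 and 0.74. Other higher members were IER3 (1.5), JUNB (0.98) and the AP-1 genes FOSL1 (0.90) and FOSL2 (0.76).

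The lower members were led by EGR1, at 936 CPM in wild type against 368 CPM in knockout (-1.35), KLF6 (-1.07), FOSB and FOS (-0.73). FOSB (ENSG00000125740, chromosome 19, 45467995 to 45475179) lay at 51.8, 53.3 and 70.9 CPM in wild type against 25.6, 30.4 and 29.5 CPM in knockout (-1.04 ± 0.07), and in cadmium its difference was -4.72. EGR3 (ENSG00000179388, chromosome 8, 22687659 to 22693302) lay at 14.9, 13.6 and 15.4 and 34.6, 43.5 and 39.1 CPM in zinc (1.41 ± 0.07) but was lower in the knockout in cadmium (-1.72), as was NR4A1 (-0.86). Zinc minus cadmium was 3.68 for FOSB, 3.13 for EGR3, 2.46 for NR4A1 and 2.14 for EGR2, the 4 highest among eligible genes (edgeR quasi-likelihood, all called). EGR1 and EGR3 thus differed in opposite directions in zinc.

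**Figure D5:**
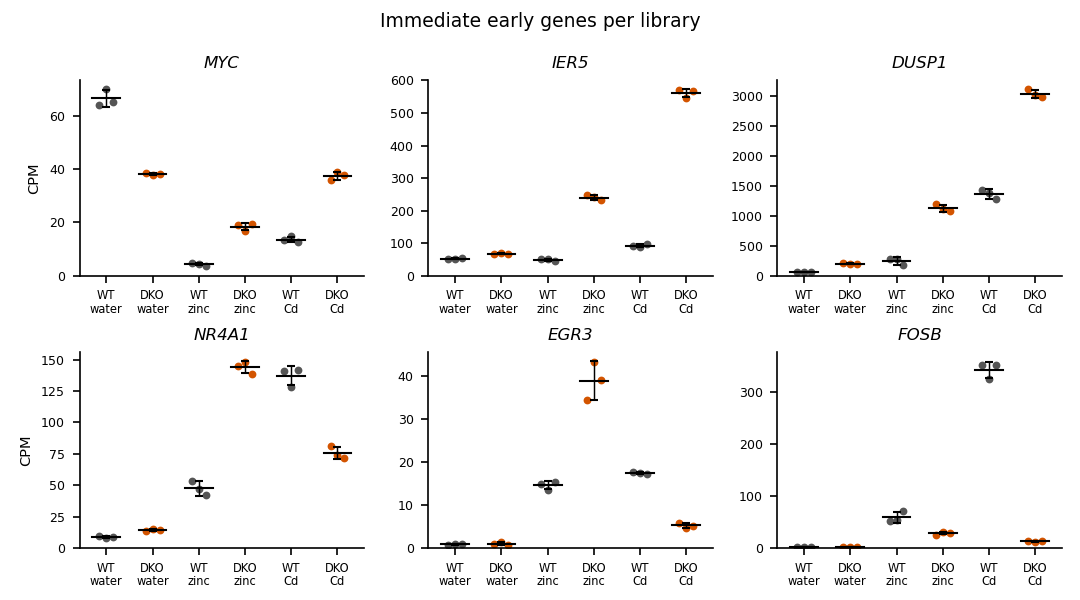
CPM per library of 6 immediate early genes in wild type (WT, grey) and knockout (DKO, orange) in water, zinc and cadmium (Cd), with the mean and SD of 3 libraries. In zinc the knockout is higher for MYC, IER5, DUSP1, NR4A1 and EGR3 and lower for FOSB, and in cadmium the wild-type libraries are higher for NR4A1, EGR3 and FOSB.

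Targets of YAP and TAZ, the coactivators that LATS kinases restrain, were higher in the knockout. The TEAD element, searched as GGAATG on both strands, was in 5 of the 12 promoters found for 17 higher targets (CCN2, ANKRD1, FOXF2, NUAK2, TGFB2), against 11.9% of 35116 promoters, and the AP-1 element TGACTCA in 1 of 12 (F3), against 4.20%. The CCN2 window (chr6:131951442-131951561, minus strand) holds 3 TEAD elements and the ANKRD1 window (chr10:90921190-90921327, minus strand) 2, in capitals, and they are shown because both are classical YAP targets with more than 1 match. NUAK2, not shown, also holds 2.
CCN2: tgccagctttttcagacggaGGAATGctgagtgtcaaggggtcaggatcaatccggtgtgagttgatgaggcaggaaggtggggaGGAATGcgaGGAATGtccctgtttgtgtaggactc
ANKRD1: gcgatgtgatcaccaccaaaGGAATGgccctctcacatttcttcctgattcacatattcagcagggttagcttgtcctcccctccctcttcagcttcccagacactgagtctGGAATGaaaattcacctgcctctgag

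Of 22 YAP/TAZ targets 17 were higher and 3 lower, 9 of them higher by at least 2-fold, with a median of 0.72 in zinc and 0.69 in water. Zinc minus water was higher for 3 and lower for 6, beside 14.1% and 10.5% of all genes. ANKRD1 (ENSG00000148677, chromosome 10, 90912096 to 90921276), a nuclear cofactor, lay at 524, 534 and 235 CPM in wild type against 2612, 2466 and 2404 CPM in knockout. Wild-type replicate 3 was the lowest, and the difference was 2.53 ± 0.13 with it and 2.23 without it. In water ANKRD1 differed by 3.20 ± 0.15, more than in zinc (zinc minus water -0.67 ± 0.19, edgeR quasi-likelihood adjusted p = 0.00828, not called with limma voom). AXL (ENSG00000167601, chromosome 19, 41219203 to 41261766), a receptor tyrosine kinase, lay at 1.36, 1.95 and 1.20 and 24.0, 22.2 and 19.4 CPM (3.86 ± 0.11), and the membrane repair gene MYOF (ENSG00000138119, chromosome 10, 93306429 to 93482317) at 6.44, 8.02 and 8.69 and 76.0, 80.2 and 91.9 CPM (3.42 ± 0.08). IGFBP3 was at 2.18 ± 0.11, the kinase gene NUAK2 at 2.11, and the matricellular genes CCN1 and CCN2 at 1.53 and 1.43. The lower members were RBMS3 (-0.36), LATS2 and FJX1 (-0.15).

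Among 25 Hippo components 15 were higher and 4 lower. YAP1 was not called, 105 against 103 CPM (-0.03, adjusted p = 0.456), and WWTR1, which encodes TAZ, was lower, 66.3 against 54.5 CPM (-0.28, adjusted p = 8.61e-07) (edgeR quasi-likelihood test). The angiomotin gene AMOT (ENSG00000126016, chromosome X, 112774503 to 112840815), whose product holds YAP in the cytoplasm, lay at 8.44, 8.57 and 7.78 CPM in wild type against 29, 29.5 and 30.3 CPM in knockout (1.84 ± 0.06). AMOTL2 was at 0.89 ± 0.03, TEAD4 at 1.04 ± 0.04, TEAD1 at 0.68, FRMD6 at 0.88 ± 0.05 and NF2 at 0.67. The upstream kinase genes STK3 and STK4 and their scaffold SAV1 were not called (0.03, 0.00 and 0.05).

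Of 19 SRF and actin cytoskeleton genes 15 were higher and 3 lower, 9 of them higher by at least 2-fold (median 0.90; 0.57 in water). FHL1 (ENSG00000022267, chromosome X, 136146702 to 136211359), a LIM domain protein gene, lay at 176, 178 and 172 CPM in wild type against 2406, 2398 and 2403 CPM in knockout (3.77 ± 0.03). The filamin gene FLNA lay at 678, 679 and 585 and 3901, 3952 and 3775 CPM (2.58 ± 0.04), and the tropomyosin gene TPM1 at 32.2, 32.2 and 26.7 and 243, 245 and 241 CPM (3.0 ± 0.05). In water FLNA and TPM1 were about as far apart (2.54 and 2.94) and FHL1 farther (4.13; zinc minus water -0.35 ± 0.04). MYL9, a myosin light chain gene, had 2 counts in each wild-type library and 1268, 1125 and 1251 in the knockout libraries, a ratio of 575 (95% counting interval 264 to 1570). ACTB, ACTA2 and TPM4 were lower (-0.27, -0.28 and -0.24), and ACTG1 was higher (0.69).

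Signalling genes also differed. In the EGF family 7 of 11 tested members were higher and 2 lower. The ligand gene NRG1 (ENSG00000157168, chromosome 8, 31639386 to 32767959) lay at 2.24, 1.91 and 1.82 CPM in wild type against 31.1, 30.2 and 29.3 CPM in knockout (3.92 ± 0.09), and its receptors parted, ERBB3 at 2.10 ± 0.10 and ERBB4 at -1.48 ± 0.08. The ligand HBEGF lay at 90.2, 89.4 and 57.3 and 119.9, 116 and 116 CPM (0.57 ± 0.07; 0.38 without wild-type replicate 3). Of 15 BMP and ID genes 11 were higher and 3 lower (median 1.05). The ligand BMP2 (ENSG00000125845, chromosome 20, 6767664 to 6780280) had 11, 6 and 6 counts in wild type and 842, 738 and 957 in knockout, a ratio of 104 (95% counting interval 69.4 to 165), and its antagonist GREM1 a ratio of 160 (84.1 to 351). BMP2 had a smaller difference in zinc than in water (6.68 and 9.50; difference -2.82 ± 0.54). The BMP-responsive ID1 and ID2 lay at 1.5 ± 0.08 and 1.43 ± 0.08, and ID3 at 1.05.

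Of 16 Notch pathway genes 9 were higher and 4 lower. HEY1 (ENSG00000164683, chromosome 8, 79764010 to 79767863), a Notch-induced repressor, lay at 7.96, 7.0 and 7.55 CPM in wild type against 16.8, 15.5 and 15.3 CPM in knockout (1.08 ± 0.09), and in water it was lower in the knockout (-0.80 ± 0.06). HEYL was at 1.0 ± 0.09, whereas HES4 (-1.35 ± 0.08) and the ligand JAG2 (-1.24 ± 0.06) were lower. Of 13 tested NF-kB targets 10 were higher and 3 lower (median 0.87; 1.02 in water), among them NFKB2 (1.15 ± 0.07), RELB (0.54 ± 0.09) and TNFAIP3 (0.75 ± 0.11; 0.55 without wild-type replicate 3). NFKBIZ, an atypical IkB gene, was lower, 46.0, 43.3 and 46.0 against 23.8, 21.8 and 24.1 CPM (-0.95 ± 0.05), and in water it was not called (-0.13 ± 0.07).

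The p53 targets had 13 members higher and 7 lower of 22, beside 34.0% and 32.7% of all genes. The polo-like kinase genes PLK2 and PLK3 lay at 1.64 ± 0.05 and 0.83 ± 0.07, FDXR at 0.70 ± 0.06 and the cyclin gene CCNG1 at -0.90 ± 0.03. CDKN1A and MDM2, both direct p53 targets, differed in opposite directions (0.37 and -0.45). Hypoxia genes had 7 higher and 5 lower of 15, beside the same shares of all genes. The peptide hormone gene ADM was at 1.62 ± 0.05, the mitophagy receptors BNIP3L and BNIP3 at 0.91 ± 0.06 and 0.57 ± 0.05, and the glycolytic regulator PFKFB3 at -0.55 ± 0.04.

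Cholesterol synthesis genes were lower in the knockout, 18 of 23 against 3 higher, with a median of -0.62 in zinc and -0.49 in water. IDI1 (ENSG00000067064, chromosome 10, 1039152 to 1049170), an isomerase of the mevalonate pathway, lay at 195, 206 and 213 CPM in wild type against 38.3, 39.9 and 40.3 CPM in knockout (-2.37 ± 0.05, edgeR quasi-likelihood adjusted p = 2.78e-33). INSIG1, which retains SREBP in the endoplasmic reticulum, lay at 129, 135 and 137 and 48.6, 48.5 and 49.7 CPM (-1.45 ± 0.04). The water differences of IDI1 and INSIG1 were -2.44 and -1.33. MSMO1 differed more in zinc (-1.11 ± 0.05) than in water (-0.44 ± 0.05). SREBF2, the pathway's activator, was at -0.61. NSDHL (0.71), FDFT1 (0.20) and EBP (0.20) were higher.

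Growth genes differed by small amounts, and their counts stand beside 34.0% higher and 32.7% lower of all genes. Of 24 DNA replication genes 11 were higher and 8 lower, led by POLA1 (0.72 ± 0.03), GINS4 (0.71 ± 0.04), RRM2 (0.70 ± 0.04) and CDC6 (0.64 ± 0.03). Of 19 mitosis genes 14 were higher and 4 lower, with UBE2C at 0.85 ± 0.04, KIF2C at 0.42 ± 0.04, BUB1 at 0.40 ± 0.03 and the kinesin gene CENPE at -0.63 ± 0.04. Ribosome biogenesis genes had 7 higher and 10 lower of 24, among them PES1 (0.79 ± 0.03), GNL3 (-0.47 ± 0.04), MYBBP1A (-0.42 ± 0.03) and NPM1 (-0.32 ± 0.03). None of the members of these 3 lists reached 2-fold. Mitochondrially encoded mRNAs had 10 lower and 1 higher of 13 (median -0.32), with MT-ATP8 at -0.50 ± 0.05, MT-ND4L at -0.41 ± 0.05, MT-ATP6 at -0.38 ± 0.03 and MT-CYB at -0.38 ± 0.03. MT-ND5, the higher one (0.07), lost its call under 7 of the alternatives, among them DESeq2 and leaving out knockout replicate 1 or 2 or wild-type replicate 3. MT-ND6 lies on the other strand of mitochondrial DNA, and these counts ignore strand.

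Matrix, adhesion and lineage genes held large differences, which for collagens and cadherins water mostly shared. For the 16 tested SOX genes zinc minus water was called higher for 5 and lower for 1, beside 14.1% and 10.5% of all genes. Of 22 tested collagen genes 18 were higher and 3 lower, 12 of them higher by at least 2-fold (median 1.14; 1.25 in water). COL5A1 (ENSG00000130635, chromosome 9, 134641774 to 134844843) lay at 18.1, 18.1 and 17.9 CPM in wild type against 296, 294 and 281 CPM in knockout (4.01 ± 0.05), and COL12A1 at 18.7, 18.9 and 16.3 and 113, 119 and 118 CPM (2.70 ± 0.06). The cartilage collagens COL9A3 and COL9A2 were at 3.79 ± 0.13 and 2.86 ± 0.14. Of 15 tested cadherins 9 were higher and 4 lower, with CDH3 (P-cadherin) at 4.45 ± 0.12, CDH1 (E-cadherin) at 2.69 with under 1 CPM in both groups, and PCDH7 at -1.14 ± 0.06. CDH4 was at 3.56 ± 0.12, but 23.3% of its reads lay on the opposite strand. Of 16 tested SOX genes 10 were higher and 1 lower. SOX2 (ENSG00000181449, chromosome 3, 181711924 to 181714436), a stem cell factor, was the lower one, 12.7, 13.4 and 13.3 against 3.04, 3.64 and 4.17 CPM (-1.85 ± 0.09), while SOX11 lay at 2.78, 2.87 and 2.99 and 39.0, 34.8 and 35 CPM (3.65 ± 0.08), SOX9 at 1.29 ± 0.09 and SOX12 at 0.84 ± 0.05.

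The highest fold changes belonged to genes with almost no reads in zinc-treated wild type. The zinc finger gene ZNF492 (ENSG00000229676, chromosome 19, 22634324 to 22667670) and the cancer-testis gene MAGEB2 (ENSG00000099399, chromosome X, 30215560 to 30220089) had no counts in the 3 wild-type libraries. In the knockout ZNF492 had 655, 606 and 736 counts, at least 630-fold higher when the wild type is set to a floor of 3 counts in all. MAGEB2 had 462, 401 and 486 counts, at least 426-fold higher by the same floor. TENM1, a teneurin gene of neuronal adhesion, had 1 count over the wild-type and 2434 over the knockout libraries, a ratio of 2300 (95% counting interval 413 to 91100). GSPT2 had 1 against 980 (928, 166 to 36700), XAGE2 2 against 1366 (647, 179 to 5340) and CDH13, or T-cadherin, 3 against 1880 (593, 203 to 2880).

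Others had 4 to 7 counts over the wild-type libraries. ZNF532 had 5 against 5559 (ratio 1050, 451 to 3240), the scavenger receptor gene OLR1 4 against 3988 (944, 368 to 3470), and the ubiquitin ligase gene NEDD4 5 against 2402 (455, 195 to 1400). ZNF502 had a ratio of 332 (142 to 1020) and the LIM domain gene PDLIM4 of 237 (115 to 589). In water, too, the 12 highest genes, MYL9 included, were near 0 in wild type, at most 0.117 CPM on average, and at least 11.3 CPM in knockout. For none of them was zinc minus water called. With so few wild-type counts its error was wide (3.59 ± 1.76 for ZNF492, -2.86 ± 1.62 for XAGE2). The missing calls therefore do not show equal effects. In the knockout ZNF492 averaged 11.3 CPM in water and 21.1 CPM in zinc, and GSPT2 16.8 and 10.4 CPM.

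At the other end, EPHA6 and ZNF503-AS1 were close to silent in the knockout, and the other 10 of the 12 lowest genes kept more reads there. The ephrin receptor gene EPHA6 (ENSG00000080224, chromosome 3, 96814581 to 97752460) had 325, 349 and 399 counts in wild type and 2, 4 and 2 in knockout (-7.08 ± 0.20), and the antisense RNA gene ZNF503-AS1 378, 361 and 364 against 4, 2 and 3 (-6.96 ± 0.19). EPHA3 lay at 59.0, 57.3 and 58.5 CPM in wild type against 3.10, 2.92 and 3.61 CPM in knockout (-4.17 ± 0.07), and COL14A1 at 83.7, 81.8 and 80.6 and 4.43, 4.79 and 4.71 CPM (-4.14 ± 0.06). BST2, the antiviral tetherin, lay at 73.6, 68.1 and 67.2 and 7.78, 6.70 and 7.16 CPM (-3.27 ± 0.07). The netrin receptor gene UNC5C was at -3.13 ± 0.08, the latrophilin gene ADGRL3 at -3.27 ± 0.07, the kinase gene CAMK2B at -4.18 ± 0.13, AMPH at -3.54 ± 0.12, MMP16 at -3.35 ± 0.13, DOK6 at -3.31 ± 0.13 and the nuclear receptor gene ESRRB at -3.30 ± 0.12. All 12 were lower in the knockout in water as well, from -3.0 to -6.16 (edgeR quasi-likelihood, all called).

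Several regulators changed order between the genotypes from water to zinc. TRIB1 (ENSG00000173334, chromosome 8, 125430321 to 125438405), a pseudokinase of the family of TRIB3, lay at 37.9, 40.8 and 24.7 CPM in wild type against 57.1, 58.5 and 56.3 CPM in knockout in zinc (0.74 ± 0.08; 0.54 without wild-type replicate 3). In water it was lower in the knockout, 17.1 ± 0.619 against 72.3 ± 0.931 CPM (mean ± SD, n = 3; -2.09 ± 0.09). RNF122 was lower in the knockout in water (-1.90 ± 0.08) and slightly higher in zinc (0.31 ± 0.10, adjusted p = 0.00731 by edgeR), a call lost without wild-type or knockout replicate 2. The clock output gene DBP was at 0.72 ± 0.10 in zinc and -0.58 ± 0.09 in water, with 26.3% of its reads on the opposite strand.

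In the reverse direction, besides DDIT4, ELAPOR1 (ENSG00000116299, chromosome 1, 109113679 to 109206781) lay at 12.2, 10.6 and 12.7 CPM in wild type against 6.01, 5.78 and 5.43 CPM in knockout in zinc (-1.05 ± 0.10), but at 0.141 ± 0.0250 and 1.05 ± 0.174 CPM in water, where the knockout was higher. MIR17HG, the host gene of the miR-17-92 cluster, lay at 52.6, 56.4 and 52.5 and 25, 25.5 and 26.7 CPM in zinc (-1.06 ± 0.05) against 0.60 ± 0.06 in water and 0.81 in cadmium. PRKG1, the cGMP-dependent kinase gene, was at -0.51 ± 0.09 in zinc and 0.67 ± 0.10 in water, with 11.3% of reads on the opposite strand. ARL14 was higher in the knockout in zinc, 3.15, 3.82 and 2.83 against 7.31, 7.85 and 5.96 CPM (1.10 ± 0.12), and its zinc minus water value of -4.49 rests on a wild-type water level of 0.0128 CPM. For BEST1 (-2.27 ± 0.10 in zinc) 98.8% of reads lay on the opposite strand, and these counts cannot tell BEST1 mRNA from reads of another transcript.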

How the data were processed

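Per the labels' protocols, TRIzol RNA went into stranded TruSeq mRNA libraries. STAR and the builds hg38 and GRCh38.p13 are named, per the submitters' processing notes. Which STAR version, annotation and read counter were used is not given in the sources used here. The authors deposited read counts per Ensembl gene, in a series table that equals the unstranded column of each sample's own file, so overlapping and antisense genes cannot be told apart. Positions come from GENCODE 29 on GRCh38, where 58216 of 58336 gene IDs were found, and counts cover exons. Symbols are current gene names, found for 57754 IDs, and otherwise those of GENCODE 29. Total counts ran from 25478614 to 37148046 over the 18 libraries.

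Genes kept by filterByExpr (minimum count 10) entered edgeR's quasi-likelihood test, after TMM scaling, on a model of the 6 groups over all 18 libraries, with Benjamini-Hochberg adjustment over the 19393 genes of each comparison (threshold 0.05) and interaction contrasts for differences from water and cadmium. Standard errors come from the test statistic. The script was tested on simulated counts. R 4.3.3, edgeR 4.0.16, limma 3.58.1, DESeq2 1.42.0, Python 3.11.15, numpy 2.4.6, pandas 2.3.3, scipy 1.17.1 and matplotlib 3.10.9 were used.

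The members, the lists and the rule for named genes were chosen with earlier results of these data known. Named genes had an adjusted p under 0.05, no clone name, no annotation as a pseudogene, at least 5 CPM over the 6 zinc libraries and no overlap of the genotypes. They were the 12 highest and 12 lowest fold changes, up to 4 members per list, the 6 highest and 6 lowest differences from water and the 4 highest and 4 lowest from cadmium, and the 4 per direction that opposed water. Pseudogenes were first to be left out by a name ending in P and a number. That pattern also drops ordinary genes such as DUSP1 and BMP2, so the annotation was used in its place, a change made after values had been seen. LATS1, LATS2, the metallothioneins, SLC30A1 and SLC30A2 were named whatever their values. Some members of the lists are not reported here by name. Members outside the rule are given by fold change or mean. Ratios of low counts have exact 95% intervals, and a count of 0 was replaced by a floor of 3 counts over the group. Alternatives were other scalings, filters and strands, DESeq2, limma voom, a replicate block, the libraries of a treatment alone, and leaving out each library.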

Additional observations from a re-analysis of the deposited data

Results flagged for a closer look

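Among the 140 named genes, 67 had a genotype difference in zinc that differed from the one in water by the interaction test (edgeR quasi-likelihood, adjusted p under 0.05). Of all genes tested 24.6% did. Some genes were named for this very difference or for opposing water, so the 2 shares cannot be compared. Values are the difference of the 2 log2 fold changes, zinc minus water, so a positive value means a knockout that stood higher, relative to wild type, in zinc than in water. In the stress responses these were TRIB3 -2.58, CTH -2.26, STC2 -1.98, ASNS -1.67, CHAC1 -1.76, DDIT4 -2.86 and SLC7A11 -1.03 for ATF4 and amino acid genes, and HSPA1A 3.36, HSPA6 2.84, HSPA5 0.78, SDF2L1 0.95, PDIA4 0.53 and DNAJC3 0.17 for chaperones. Zinc handling genes had MT1G 4.85, SLC30A1 -0.62, SLC30A9 -0.12, SLC39A10 -0.45, SLC39A9 -0.27, SLC39A1 0.30 and SLC39A14 0.17.

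Immediate early genes had MYC 2.92, DUSP4 2.23, IER5 1.92, EGR3 1.29, NR4A1 0.89, DUSP1 0.38 and FOSB -1.26. Hippo and cytoskeleton genes had LATS2 -0.51, ANKRD1 -0.67, FHL1 -0.35, AMOT 0.23, TEAD4 0.23 and AMOTL2 0.38. Signalling genes had BMP2 -2.82, ID2 0.51, HEY1 1.88, JAG2 0.33, NFKBIZ -0.83 and RELB -0.52, and p53 and hypoxia genes PLK2 0.39, PLK3 0.87, CCNG1 -0.25, ADM -0.37, BNIP3 0.28 and PFKFB3 0.32. Growth, lipid and mitochondrial genes had MSMO1 -0.67, CDC6 0.27, CENPE -0.51, KIF2C 0.23, PES1 0.22, MYBBP1A 0.22, NPM1 -0.11, MT-ND4L -0.19 and MT-CYB -0.10, and matrix, adhesion and lineage genes COL14A1 0.29, PCDH7 -0.31, SOX2 0.54, SOX9 0.44 and SOX12 0.50. The genes named for this difference alone, or for their turned order, had TRIB1 2.82, RNF122 2.21, DBP 1.30, ARL14 -4.49, ELAPOR1 -3.90, BEST1 -2.65, MIR17HG -1.66 and PRKG1 -1.18.

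Of those named for the difference from cadmium, zinc minus cadmium was ELAPOR1 -2.28, DDIT4 -2.29, FOSB 3.68, EGR3 3.13, NR4A1 2.46, EGR2 2.14, CHAC1 -2.10 and MIR17HG -1.87. The smaller differences from water depended on the setting: those of COL14A1, SLC30A9, DNAJC3, AMOT, DUSP1, MT-ND4L, MT-CYB and NPM1 each lost their call under at least 1 alternative, as did that of ANKRD1 with limma voom. The difference of MT1G lost its call under 3 alternatives and rests on 2 counts per genotype over the water libraries. Those of MT1F, MT1X, MT1H, HMOX1, IGFBP3, HES4, ID1, MT-ATP6, ADGRL3 and HBEGF, not called as reported, were each called under at least 1 alternative. Without wild-type water replicate 1 the value of ARL14 was -6.40, and without wild-type water replicate 3 that of BMP2 was -3.83.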

How the results depend on the processing

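With each library left out in turn, 12269 to 12539 genes were called between genotypes in zinc (6303 to 6356 higher, 5942 to 6183 lower), 4194 to 4679 in the difference from water and 3994 to 4661 in that from cadmium. The counts of calls stayed within 1.5 times of those reported under every alternative, except those at 2-fold. Restricting the test to genes of at least 5 CPM in 3 libraries left 796 higher and 379 lower by 2-fold in zinc, and 47 and 87 in the difference from water, since fewer genes were tested. DESeq2's test called 111 higher by 2-fold in the difference from water, where the cause was not tested. By library size alone the share of higher calls in the difference from cadmium was 48.7%, against 59.1%. Of 2097 alternative values for the 140 named genes in zinc, 3 lost the call (RNF122 without wild-type or knockout replicate 2, MT1B without wild-type replicate 2) and 0 changed direction; of 2796 for their difference from water 73 lost it, 49 gained it, and 0 of the called ones changed direction. Of 1750 list counts 88 moved by over 1.5 times, all in lists with small counts.

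The labels do not say that a number marks a shared culture or day, so the numbers were not taken as pairs. Deviations from group means correlated at -0.025 to 0.086 between same-numbered libraries and at -0.067 to 0.029 between differently numbered ones. As an alternative, the replicate block gave 13030 calls in zinc, 12312 in water, 13106 in cadmium, 5072 in the difference from water and 4873 in that from cadmium. As a hint from the data of something shared by number, 16 of 18 libraries correlated best with their own number. Whether this was a batch was not tested. Genes with few counts in 1 genotype are limited by depth, and their ratios by counting error.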
